A study of Mus musculus with 21 samples.

Results

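CEBPB(V285A) was compared on arrays whose second strand was made with 5-hydroxymethylcytosine (5hmC) and on arrays made with unmodified cytosine (C). All arrays of these conditions were taken, 2 with 5hmC and 2 with C, out of 21 arrays in the series, and every sequence of 8 bases (8-mer) in the deposited matrix was used, 65535 in all. The assay was the protein binding microarray, in which a tagged protein is bound to double-stranded probes and read by fluorescence. Each protein was a mouse bZIP DNA-binding domain with an N-terminal GST tag, expressed by coupled transcription and translation in vitro, so the arrays held an isolated domain and no cell, full-length protein or partner. In the 5hmC group the second strand was synthesised with 5hmC in place of cytosine, and in the C group with cytosine. The template strand carried plain cytosine in both groups, so the modified base lay on one strand only. Where needed, 2 arrays of CEBPB(V285A) with 5-methylcytosine (5mC), 2 of CREB1 with 5hmC and 2 of CREB1 with C are set beside them.

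CEBPB is a C/EBP transcription factor with roles in adipocyte differentiation, liver and inflammation, and CREB1 is the factor that answers cyclic AMP. Both bind DNA as dimers through a basic region and leucine zipper, each subunit reading a half-site, which is TGAC (GTCA on the other strand) in the cAMP response element (CRE), TTGC (GCAA) in C/EBP sites and TTAC (GTAA) in sites of the PAR subfamily. V285A puts into the basic region of CEBPB the alanine that CREB1 has at the matching position, and CREB1(A297V) is the reverse exchange. 5hmC is formed from 5mC by TET enzymes, mostly at CpG dinucleotides, while on these arrays every cytosine of the synthesised strand was modified, whatever base followed it.

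The sites on which the results turn are these, written 5′ to 3′ in the synthesised direction, with capitals for the cytosines that were modified on the 5hmC arrays.
CRE palindrome: tgaCgtCa
C/EBP palindrome: ttgCgCaa
PAR palindrome: ttaCgtaa
CRE site with a PAR left arm: ttaCgtCa
PAR and C/EBP site with a TpG centre: ttatgCaa
its reverse complement: ttgCataa
PAR site with a TpG centre: ttatgtaa
its reverse complement: ttaCataa
composite C/EBP-ATF site: tgatgCaa
its reverse complement: ttgCatCa
These are synthetic 8-mers inside designed probes and have no position in a genome. The names in the matrix had to be complemented to give them. Over 65126 8-mers with a probe, a name read as the printed probe sequence backwards gave a Pearson r between Z-score and median probe intensity of 0.962 and 0.913 on the 5hmC arrays and 0.986 and 0.984 on the C arrays. The next best reading, the complement, gave 0.399 and 0.465 on 5hmC and 0.813 and 0.818 on C. That the printed sequence is the template of the primer extension was assumed, and if it were the synthesised strand each 8-mer would trade places with its reverse complement.

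The Z-score of the authors has a median of 0 on each array and says how bright the probes with an 8-mer were relative to the other probes of that array. It was not scaled between arrays, so it measures preference and not affinity. The median spot intensity was 295 and 292 on the 5hmC arrays, against 735 and 738 on the C arrays, over a median local background of 113 and 145 on 5hmC and 227 and 301 on C. The highest Z-score of an array was 228 and 125 on 5hmC, against 251 and 232 on C, and the mean of its 100 highest was 40.9 and 26.8 on 5hmC, against 69.4 and 50.2 on C. Replicates correlated at 0.838 on 5hmC and 0.958 on C across 8-mers, and arrays of different groups at 0.410 to 0.505. 5hmC replicate 1 had the wider range of the 5hmC pair. The deposited names give the 5hmC and C arrays different array numbers, so cytosine form and array number cannot be told apart. Nothing in the labels says that replicate arrays held separate protein preparations, so p-values measure the spread between these arrays, which may be technical, and an exact two-sided permutation test of 2 arrays against 2 cannot go below 0.333.

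On 5hmC, CEBPB(V285A) had lower scores at 8-mers that end in the CRE half-site after cytosine, and higher scores at many that end in a PAR or C/EBP half-site after thymine. Fixed sites that join a CRE left half-site to a C/EBP or PAR right arm around a CpG were not called, and the PAR and C/EBP lists read on the opposite strand showed few rises. Of 65535 8-mers, 4755 (7.26%) differed between 5hmC and C in limma at an adjusted p under 0.05, 1546 higher on 5hmC (2.36%) and 3209 lower (4.90%). On the deposited scale, 251 of the called rises and 958 of the called falls were of 5 Z units or more. The highest scores on that scale were lower on 5hmC than on C, so sizes of rises and falls are not on equal terms. Of the 3209 falls, 2510 (78.2%) held a CpG, against 38.1% of all 8-mers, 958 (29.9%) held GTCA or TGAC, against 3.90%, and 863 (26.9%) held ACGT, against 1.95%. Of the 1546 rises, 229 (14.8%) held a CpG and 9 held GTCA or TGAC. The rises held GTAA in 276 (17.9%) and GCAA in 105 (6.79%), against 1.95% of all 8-mers for each, and 424 (27.4%) had no cytosine on the synthesised strand, against 10.0%.

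The fit pooled the spread of all 21 arrays, with 11 residual degrees of freedom. With the 4 arrays alone no 8-mer passed the adjusted threshold in limma, while 14488 had an unadjusted p under 0.05 (13178 in the pooled fit), and the adjusted p of the 28 named 8-mers called in the pooled fit lay between 0.0707 and 0.888. The pooled fit called 2050 8-mers without C replicate 1 and 2685 without C replicate 2. With Z-scores recomputed from log2 intensities the calls were 2559 higher and 2970 lower, and with normexp-corrected, quantile-normalized probes 2186 higher and 2843 lower. Of the 28 named calls, 20 were kept with their direction on the asinh scale, 17 with arrays scaled to their 100 highest 8-mers, 21 after quantile normalization, 24 on recomputed Z-scores and 23 on normexp probes. On the asinh scale the calls of ttatgCaa (adjusted p = 0.127 in limma) and tgatgCaa (0.442) were among those lost, and scaling to the 100 highest ended that of tgaCgtCa (0.0949).

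**Figure D1:**
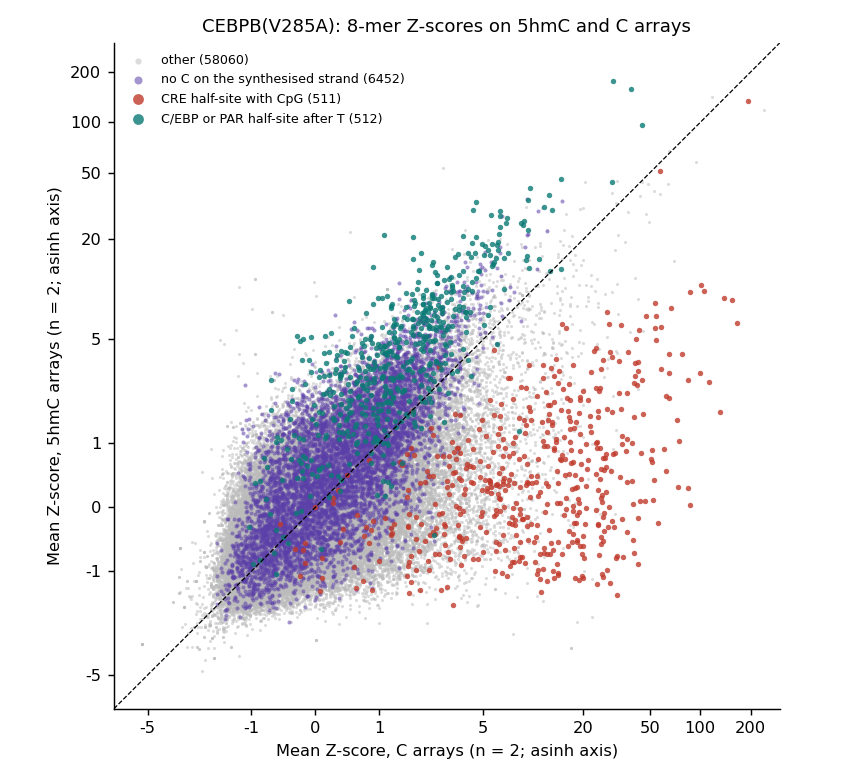
Mean Z-score of each 8-mer over 2 arrays, on 5hmC (vertical axis) against C (horizontal axis), both on an asinh axis with the dashed line at equal values. 8-mers with CGTCA or TGACG (511, red) lie mostly below the line, and those with TGTAA or TGCAA (512, green) mostly above it.

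The best-bound sequences differed in makeup. Among the 100 8-mers with the highest mean Z-score, GTCA was in 0 on 5hmC and 35 on C, and TGAC in 3 on 5hmC and 43 on C. GTAA was in 48 on 5hmC and 12 on C, and GCAA in 29 on 5hmC and 4 on C. A CpG was in 37 of the 100 on 5hmC, against 93 on C, and 23 on 5hmC had no cytosine to modify, against 1 on C. The lists held on average 1.35 cytosines per 8-mer on 5hmC and 1.97 on C. TGTAA or TGCAA was in 41 of the 100 on 5hmC and 2 on C. These are descriptions of ranks by the mean of 2 arrays, in which the array with the wider range weighs more.

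The 27 sites made by joining the CRE, C/EBP and PAR half-sites around a CpG, TpG or CpA centre separated by their right arm, the last 3 bases. All 9 that end in tCa (the CRE arm) were called lower on the deposited scale, against 4.90% of all 8-mers (2.36% were called higher). With arrays scaled to their 100 highest 8-mers only ttgCgtCa and ttaCgtCa kept that call, and ttgtgtCa turned to 0.722. The calls of ttgtgtCa, ttatgtCa and ttgCatCa were lost on the asinh scale, and those of ttgtgtCa and tgaCatCa on recomputed Z-scores. Of the 9 that end in Caa (the C/EBP arm), 2 were higher and 7 were not called, and of the 9 that end in taa (the PAR arm), 3 were higher, 2 lower and 4 not called. By centre, CpG sites gave 0 higher and 4 lower of 9, TpG sites 5 higher and 3 lower, and CpA sites 0 higher and 4 lower.

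The CRE palindrome tgaCgtCa, the site of CREB1, had Z-scores of 10.8 and 6.48 on 5hmC, against 174 and 135 on C. The groups were far apart, and the difference was −146 ± 12.3 (SE; limma adjusted p = 4.50e-06), with means of 8.62 ± 3.03 on 5hmC and 155 ± 27.9 on C (SD, n = 2 each). By mean it ranked 351 among the 8-mers on 5hmC and 4 on C. Replacing its left arm by the PAR half-site gave the largest fall of any 8-mer: ttaCgtCa had 6.56 and 6.05 on 5hmC, against 185 and 149 on C (−161 ± 9.67, limma adjusted p = 2.22e-07). With a C/EBP left arm, ttgCgtCa had 4.53 and 1.05 on 5hmC, against 93.1 and 77.2 on C (−82.3 ± 4.31, limma adjusted p = 6.91e-08). All 3 carry 2 cytosines on the synthesised strand, in the CpG and in the tCa end, and on 5hmC none of the 3 exceeded 10.8.

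CRE half-sites without a CpG also fell. The TpG-centred tgatgtCa, in which the CpG cytosine is replaced by thymine and only the tCa cytosine can be modified, had 2.08 and 4.53 on 5hmC, against 33.1 and 22.1 on C (−24.3, limma adjusted p = 5.63e-05). The sites ttatgtCa (3.49 and 6.14 on 5hmC, against 16.3 and 21.6 on C) and tgaCatCa (13.0 and 4.46 on 5hmC, against 49.8 and 34.9 on C) moved the same way. The CpA-centred ttaCatCa had 3.76 and 7.28 on 5hmC, against 37.9 and 38.1 on C (−32.5, limma adjusted p = 1.16e-07). At ttgtgtCa both groups were low, with 3.30 and 3.47 on 5hmC, against 5.82 and 5.63 on C (−2.34, limma adjusted p = 0.0177). Its call ended on leaving out any of the 4 arrays, where the adjusted p was 0.0641 to 0.130 in limma.

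Where the tCa end was replaced by the PAR end taa, which has no cytosine, CpG-centred sites kept high scores on 5hmC. The hybrid tgaCgtaa had 205 and 63.8 on 5hmC, against 211 and 173 on C, and the difference of −57.8 did not pass the test (limma adjusted p = 0.272). Its 5hmC arrays differed from each other by more than the groups did, with an SD of 99.5. The PAR palindrome ttaCgtaa, the top 8-mer on C, had 131 and 106 on 5hmC, against 251 and 232 on C, and ranked 5 on 5hmC. Its difference of −123 ± 8.09 passed the test on the deposited scale (limma adjusted p = 4.97e-07), but it was +6.82 on Z-scores recomputed from log2 intensities (limma adjusted p = 0.190), so its direction depends on the scale. The C/EBP and PAR hybrid ttgCgtaa had 59.5 and 26.1 on 5hmC, against 49.7 and 47.4 on C, and the groups overlapped.

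CpG-centred sites that end in the C/EBP half-site showed no called difference on the deposited scale with all arrays. The C/EBP palindrome ttgCgCaa, with 2 modified cytosines, had 76.9 and 57.7 on 5hmC, against 65.7 and 65.3 on C (difference 1.81 ± 8.04, limma adjusted p = 0.941). It ranked 7 on 5hmC and 23 on C. The hybrid tgaCgCaa had 42.0 and 60.7 on 5hmC, against 60.8 and 54.6 on C (−6.36 ± 9.12). The hybrid ttaCgCaa had 194 and 88.2 on 5hmC, against 128 and 109 on C (23.0 ± 20.7, limma adjusted p = 0.606). The C arrays lay between the 5hmC arrays in this last site. Its difference was −30.2 without 5hmC replicate 1 and 76.1 without 5hmC replicate 2, so the 5hmC arrays gave opposite directions. At these sites a p that misses the threshold does not show equal binding, since the SE reached 20.7 Z units.

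The largest rises were at TpG-centred sites with a PAR left arm. The site ttatgCaa became the top 8-mer on 5hmC: it had 228 and 125 on 5hmC, against 31.6 and 28.3 on C, where it ranked 116. The difference was 147 ± 20.6 (SE; limma adjusted p = 4.04e-04). The PAR site ttatgtaa, which has no cytosine on the synthesised strand, had 205 and 112 on 5hmC, against 41.7 and 35.0 on C, and ranked 2 on 5hmC and 79 on C. Its difference was 120.0 ± 19.2 (limma adjusted p = 0.00116). Both 5hmC arrays lay above both C arrays at these sites, and the distance between the 5hmC arrays was large, with an SD of 72.4 and 66.2. Without 5hmC replicate 1 the differences were 95.4 at ttatgCaa and 73.2 at ttatgtaa.

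The composite site tgatgCaa, at which C/EBP proteins pair with ATF4-type partners, had 109.9 and 84.0 on 5hmC, against 42.0 and 47.6 on C (52.2 ± 8.68, limma adjusted p = 0.00160). It ranked 6 on 5hmC and 54 on C. The cytosine-free sites ttgtgtaa and tgatgtaa rose as well. The first had 27.1 and 27.7 on 5hmC, against 6.34 and 6.36 on C (21.0 ± 2.05, limma adjusted p = 1.59e-05), the closest replicates of any site that rose. The second had 49.8 and 38.5 on 5hmC, against 29.96 and 29.4 on C (14.5, limma adjusted p = 0.0415). That call ended on leaving out 16 of the 21 arrays one at a time, and the difference was 8.81 without 5hmC replicate 1. The site ttgtgCaa had 16.1 and 17.0 on 5hmC, against 2.19 and 1.83 on C, without overlap, but did not pass the test (limma adjusted p = 0.118).

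Of the CpA-centred sites, the reverse complements of the TpG sites, none was called higher on the deposited scale with all arrays. The site ttaCataa had 49.5 and 36.7 on 5hmC, against 69.5 and 59.7 on C (−21.5, limma adjusted p = 0.107). The site ttgCataa had 29.9 and 44.8 on 5hmC, against 58.9 and 55.3 on C (−19.8, limma adjusted p = 0.0103). That call ended without C replicate 1 (−17.9) or 5hmC replicate 1 (−12.3), and its sign turned on 4 of the other scales tried. The site tgaCataa had 60.9 and 27.3 on 5hmC, against 43.7 and 45.9 on C, with overlapping groups. However, tgaCataa was called higher on recomputed Z-scores (5.25, limma adjusted p = 0.00745). Its difference was 16.2 without 5hmC replicate 2 and −17.5 without 5hmC replicate 1. The groups also overlapped at ttaCaCaa, with 10.9 and 14.4 on 5hmC, against 12.9 and 11.7 on C. The sites tgaCaCaa (4.98 and 3.09 on 5hmC, against 7.99 and 6.65 on C) and ttgCaCaa (8.15 and 16.5 on 5hmC, against 6.94 and 6.601 on C) did not overlap and were not called. The second was higher on both 5hmC arrays, by 5.54 on the group means (limma adjusted p = 0.332).

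**Figure D2:**
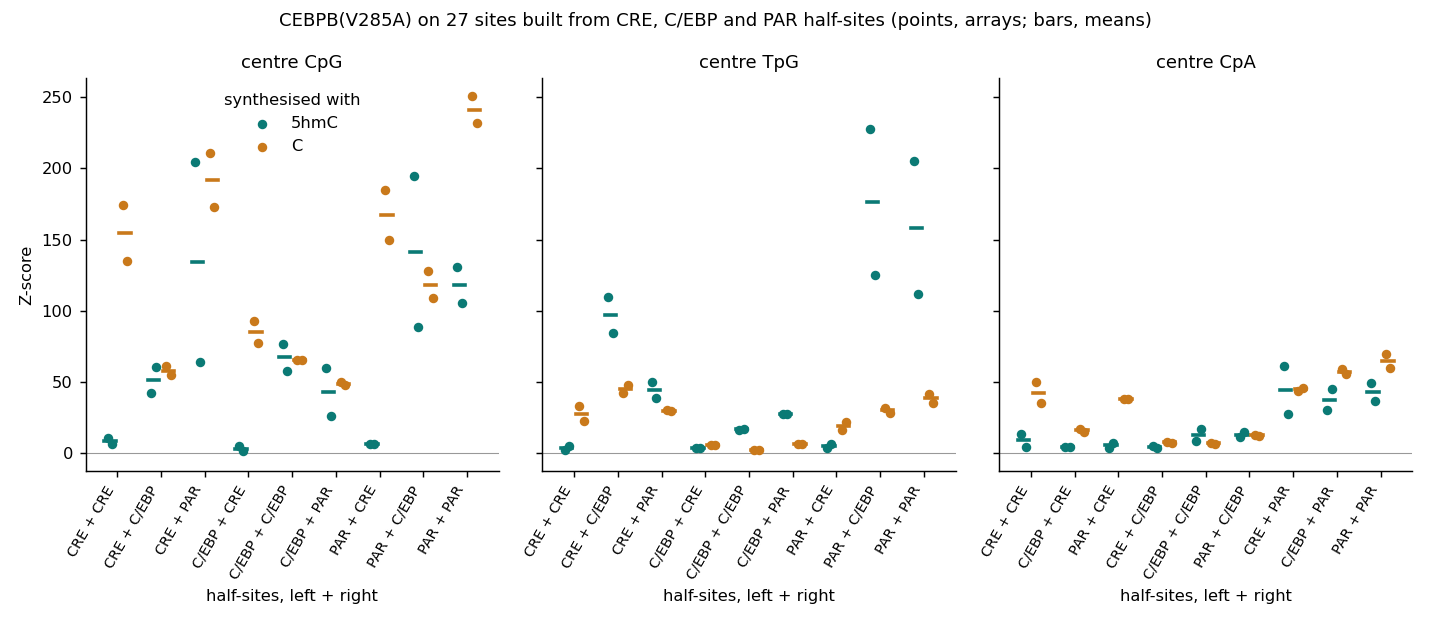
Z-score on each array (points) and group mean (bars) for the 27 sites, with 5hmC left of C at each site and 1 panel per centre. The 3 CpG sites ending in the CRE half-site reach at most 10.8 on 5hmC and at least 77.2 on C, while PAR + C/EBP and PAR + PAR with a TpG centre reach at least 112 on 5hmC and at most 41.7 on C.

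Outside the 27 sites, the 6 largest rises among 8-mers with at least 8 probes, after the same kind of skipping of shared 7-base runs, were pieces of the same half-sites or AT-rich sequences. The 8-mer atgtaatC, which holds tgtaa, had 48.1 and 43.9 on 5hmC, against 14.9 and 14.6 on C (31.3, limma adjusted p = 7.53e-06). The 8-mer atgCaata had 36.2 and 23.1 on 5hmC, against 6.66 and 5.93 on C. Cgatgtaa had 28.4 and 13.7 on 5hmC, against 1.24 and 0.950 on C. The 3 others were ataatagt (25.8), gtaaCtgt (23.5) and gtaagagt (21.2), given as 5hmC minus C. In each, 5hmC replicate 1 was well above replicate 2, and without it the differences were 12.5, 11.0 and 10.2. The calls of these 3 ended without either C array. The difference of Cgatgtaa was 12.6 without 5hmC replicate 1. Of these, gtaaCtgt and gtaagagt have the PAR half-site at their start, and ataatagt holds none of the half-sites.

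The 6 falls named outside the 27 sites, the largest after skipping 8-mers that share 7 bases in a row with one taken, all held a CRE half-site joined to its CpG, as CGTCA or TGACG. The 8-mer aCgtCaCa had 3.56 and 1.88 on 5hmC, against 133 and 93.8 on C (−111, limma adjusted p = 3.29e-05). The 8-mer gCtgaCgt had 0.328 and −0.271 on 5hmC, against 83.0 and 91.6 on C (−87.3, limma adjusted p = 1.42e-08), so on 5hmC it stood at the array median. The 8-mer tatgaCgt had 11.6 and 7.99 on 5hmC, against 148 and 64.4 on C. Its difference was −96.3, or −54.5 without C replicate 1. For tgaCgtgg, CgtCatCg and CgtgaCgC it was −60.5, −51.8 and −43.5, with no 5hmC value above 2.47, and for CgtCatCg it was −34.4 without C replicate 1.

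The base before a half-site separated the lists of 64 8-mers that end in a 5-base core, in which motif letters are all written in capitals. After a cytosine, the CRE half-site (CGTCA) fell in 60 of 64 and rose in 0, with a median 5hmC minus C of −10.8, against 0.00312 over all 8-mers. The median Z-scores of this list were −0.0964 and 0.0411 on 5hmC, against 11.5 and 9.70 on C, so its typical member was near the array median on 5hmC. Its reverse complement TGACG fell in 54 of 64 (median −8.67). After thymine (TGTCA) the half-site fell in 32 of 64 (median −1.94), after adenine in 7 and after guanine in 11. None of the 4 lists that end in GTCA had a rise. On the opposite strand, TGACA fell in 14 of 64 and rose in 0. There TGACT fell in 7 and rose in 2, and TGACC fell in 4 and rose in 1. Over all 8-mers 4.90% fell and 2.36% rose, and TGACC was near these shares, at 6.25% and 1.56%. Falls were fewer on that strand for the half-site after cytosine, thymine or guanine, and equal in number after adenine. The counts of calls in these and the following lists were made on the deposited scale only.

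The PAR half-site after thymine (TGTAA) rose in 31 of 64 and fell in 0, with a median of 2.61 and median Z-scores of 5.46 and 3.73 on 5hmC, against 1.57 and 1.67 on C. After guanine (GGTAA) it rose in 8 and fell in 0 (median 1.22), and after adenine it rose in 4. After cytosine (CGTAA) it rose in 2 and fell in 15 (median −1.40), and that median was above 0 when arrays were scaled to their 100 highest 8-mers. Read on the opposite strand, 8-mers that start with TTACG fell in 27 of 64 (median −1.78), while those that start with TTACA rose in 1 (1.56%) and fell in 5 (7.81%), near the 2.36% and 4.90% of all 8-mers.

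The C/EBP half-site after thymine (TGCAA) rose in 19 of 64 and fell in 1, with a median of 1.70 and median Z-scores of 3.03 and 2.27 on 5hmC, against 1.21 and 1.00 on C. After cytosine (CGCAA) 0 of 64 were called in either direction (median 0.482), with median Z-scores of 1.80 and 1.77 on 5hmC, against 1.33 and 1.32 on C. The reverse complement list, TTGCG, rose in 0 and fell in 12. Starting with the reverse complement of TGCAA, the list TTGCA rose in 4 (6.25%) and fell in 2 (3.12%). Sites that join CRE, PAR and C/EBP half-sites are in more than 1 of these lists.

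**Figure D3:**
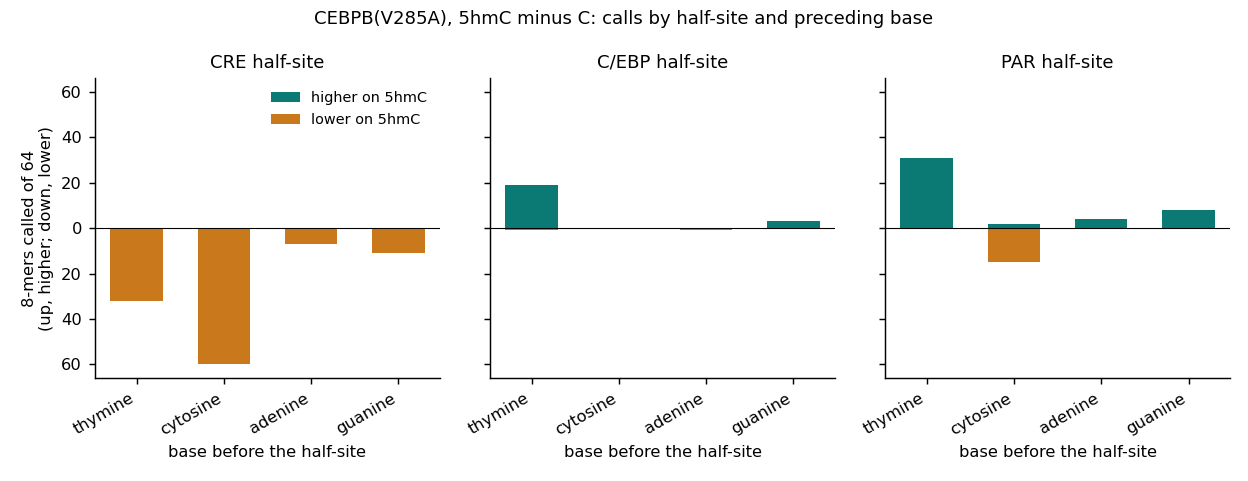
Number of 8-mers called higher (up) or lower (down) on 5hmC than on C, of 64 that end in each half-site, by the base before it. The CRE half-site after cytosine has 60 falls, and the PAR and C/EBP half-sites after thymine have 31 and 19 rises.

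Other motif families were described in the same way, beside the 2.36% of all 8-mers that rose and the 4.90% that fell. E-boxes (CACGTG, the site of basic helix-loop-helix proteins) fell in 41 of 48 8-mers, with a median of −3.43 and median Z-scores of 0.294 and −0.0576 on 5hmC, against 3.74 and 3.35 on C. AP-1 sites, bound by FOS and JUN and written TGACTCA on either strand, fell in 7 of 16. The composite C/EBP-ATF list, with TGATGCA on either strand and GATGCAA on either strand, had 5 rises and 5 falls among 30 (16.7% each). ETS sites (CCGGAA or TTCCGG), bound by an unrelated family, had no call among 95. 8-mers of A and T alone rose in 43 of 255 (16.9%) and fell in 0, with a median of 0.888. Cytosine-free 8-mers with a G rose in 381 of 6305 (6.04%) and fell in 16 (0.254%). The share of falls grew with the number of CpGs: 699 of 40544 8-mers with 0 CpG fell, 1931 of 21468 with 1, 539 of 3366 with 2 and 39 of 156 with 3. The rises numbered 1317, 217, 12 and 0 in the same order.

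Reading each site on both strands compares the same DNA sequence with the modified bases on opposite sides. Each reading is scored from the probes that carry it, so the flanks can differ too. Across 32639 pairs, the correlation of an 8-mer with its reverse complement was 0.362 and 0.409 on the 5hmC arrays, against 0.796 and 0.796 on the C arrays, a description across 8-mers that share probes. The strand difference, the Z-score of a reading minus that of its reverse complement on the same array, changed between 5hmC and C for 1227 pairs (3.76%) in limma at an adjusted p under 0.05. Taken for the reading that comes first in the alphabet, 534 rose (1.64%) and 693 fell (2.12%). Of the 960 called pairs whose strands held unequal numbers of cytosines, 638 (66.5%) shifted towards the strand with fewer, against 45.3% of 26333 such pairs over all. The limma count was 510 without C replicate 1, 704 without C replicate 2 and 813 without 5hmC replicate 1, and 171 on the asinh scale.

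The site with the largest change was ttatgCaa against ttgCataa, which carry 1 cytosine each, in the caa end of the first and in the centre of the second. On 5hmC the first exceeded the second by 198 and 80.5, while on C it was lower, at −27.3 and −27.0, a change of 166 ± 20.5 (SE; limma adjusted p = 3.78e-05), or 108 without 5hmC replicate 1. The pair ttatgtaa and ttaCataa, with 0 and 1 cytosines, differed by 156 and 74.8 on 5hmC, against −27.8 and −24.7 on C (142 ± 13.6, limma adjusted p = 1.54e-06). In both, the sign of the difference on C was opposite to that on 5hmC. On C both strands hold plain cytosine, so the difference there is not one of cytosine form. The readings were scored from 18 and 14 probes in the first pair and 20 and 16 in the second. What sets the difference on C was not tested.

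The hybrid tgaCgCaa exceeded its reverse complement ttgCgtCa by 37.5 and 59.7 on 5hmC, against −32.3 and −22.5 on C (76.0 ± 17.3, limma adjusted p = 0.0140). Both readings hold 2 cytosines within the 8-mer, in the CpG and in the Caa end of the first or the tCa end of the second. The rest of each probe can hold further modified cytosines. Whether their number or position sets the change was not tested. The call ended without either C array (adjusted p 0.371 and 0.170 in limma), with the change still at 71.1 and 80.9. For tgatgtaa over ttaCatCa the difference was 46.0 and 31.2 on 5hmC, against −7.93 and −8.67 on C (46.9, limma adjusted p = 5.78e-09), and for ttgtgtaa over ttaCaCaa it was 16.2 and 13.3 on 5hmC, against −6.52 and −5.33 on C (20.7, limma adjusted p = 3.63e-06).

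In 3 called pairs with TGACG or CGTCA, the strand difference was closer to 0 on 5hmC than on C. Both readings of each pair scored far lower on 5hmC, so this change cannot be told apart from the fall of both. On 5hmC gCtgaCgt had 0.328 and −0.271 and aCgtCagC −0.116 and −0.716. There tgtgaCgt had 3.53 and 3.03 and aCgtCaCa 3.56 and 1.88, while atgaCgta had 9.40 and 8.45 and taCgtCat 0.838 and 0.946. The reading gCtgaCgt exceeded aCgtCagC by 0.443 and 0.444 on 5hmC, against 55.1 and 68.3 on C (−61.2, limma adjusted p = 7.82e-11). The reading tgtgaCgt differed from aCgtCaCa by −0.0289 and 1.15 on 5hmC, against −60.2 and −50.8 on C (56.0, limma adjusted p = 3.60e-06). For atgaCgta over taCgtCat the difference was 8.57 and 7.50 on 5hmC, against 120.5 and 34.1 on C (−69.2, limma adjusted p = 0.00705), its sign turned on the asinh scale and on both scales computed from the probes, and it was −26.1 without C replicate 1 and −112 without C replicate 2. The PAR pair gttaCgta and taCgtaaC differed by −41.9 and −19.7 on 5hmC, against 10.1 and −6.48 on C (−32.7, limma adjusted p = 5.03e-04), or −21.6 without 5hmC replicate 1.

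Of the 12 fixed pairs that are not palindromes, 7 were not called. The hybrid tgaCgtaa exceeded ttaCgtCa by 198 and 57.7 on 5hmC, against 26.2 and 23.3 on C (limma adjusted p = 0.0741). The composite tgatgCaa exceeded ttgCatCa by 105.6 and 80.0 on 5hmC, against 24.9 and 33.0 on C, with an SE of 172 from the pooled, trended spread (limma adjusted p = 0.898), although the arrays of the groups did not overlap. Read alone, ttgCatCa had 4.30 and 4.09 on 5hmC, against 17.0 and 14.6 on C (−11.6, limma adjusted p = 6.55e-07), so one reading of the composite site rose and the other fell. For ttgCgtaa over ttaCgCaa the difference was −135 and −62.1 on 5hmC, against −77.9 and −61.8 on C, with overlap. The 4 others had changes of 0.945 to 13.4, with limma adjusted p of 0.0515 to 0.734.

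**Figure D4:**
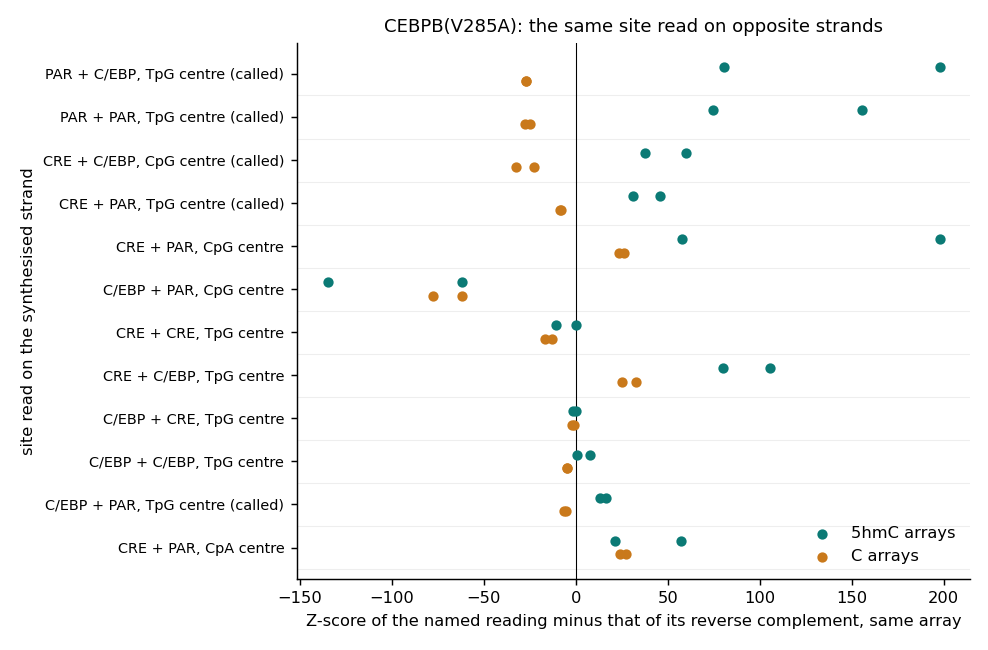
Strand difference in Z-score (named reading minus its reverse complement) on each 5hmC array (upper points) and C array (lower points) for the 12 strand pairs among the 27 sites. PAR + C/EBP and PAR + PAR with a TpG centre reach at least 74.8 on 5hmC and at most −24.7 on C.

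The probes behind these scores are the source of the Z-scores, so they show the same data one step earlier and are no separate support. A probe carries 35 variable bases, written here 5′ to 3′ in the synthesised direction with the 8-mer site in capitals. These had the highest mean intensity of any probe with their site, on 5hmC and on C, and show a fall, a rise and a probe that stayed bright.
HK14808, CRE palindrome: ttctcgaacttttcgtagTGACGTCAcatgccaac
HK02413, PAR and C/EBP site with a TpG centre: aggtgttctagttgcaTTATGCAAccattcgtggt
HK26957, PAR palindrome: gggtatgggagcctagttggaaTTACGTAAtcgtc
After subtraction of the local background, values are multiples of the array's median probe. HK14808 was at 32.2 and 31.2 on 5hmC, against 129.8 and 123 on C. HK02413 was at 343 and 97.6 on 5hmC, against 56.6 and 65.0 on C. HK26957 was at 305 and 150.0 on 5hmC, against 132 and 108 on C, while 14 of the 18 probes with its site were dimmer on 5hmC. The spots of HK14808 and HK26957 read 65528 on C replicate 1, the top of the scanner's range there, so those C values are lower bounds.

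Over the 19 probes with the CRE palindrome the median was 2.15 and 2.26 on 5hmC, against 40.8 and 35.3 on C, and all 19 were dimmer on 5hmC (median log2 of 5hmC over C −4.02, against −0.06 over all 40330 probes). Over the 18 probes with ttatgCaa it was 34.1 and 26.1 on 5hmC, against 8.86 and 8.66 on C, and 17 were brighter on 5hmC (median log2 1.30). The reverse complement ttgCataa had 5.33 and 9.99 on 5hmC, against 15.7 and 16.0 on C, with 1 of 14 probes brighter on 5hmC (median log2 −1.05). The composite tgatgCaa was brighter on 5hmC in 14 of 17 probes (median log2 0.78) and its reverse complement ttgCatCa in 1 of 18 (median log2 −1.60). The PAR palindrome ttaCgtaa was brighter in 4 of 18 (median log2 −0.73) and the C/EBP palindrome ttgCgCaa in 5 of 17 (median log2 −0.12). Probes with a site also differ in their flanks, and they are no replicates of the condition.

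**Figure D5:**
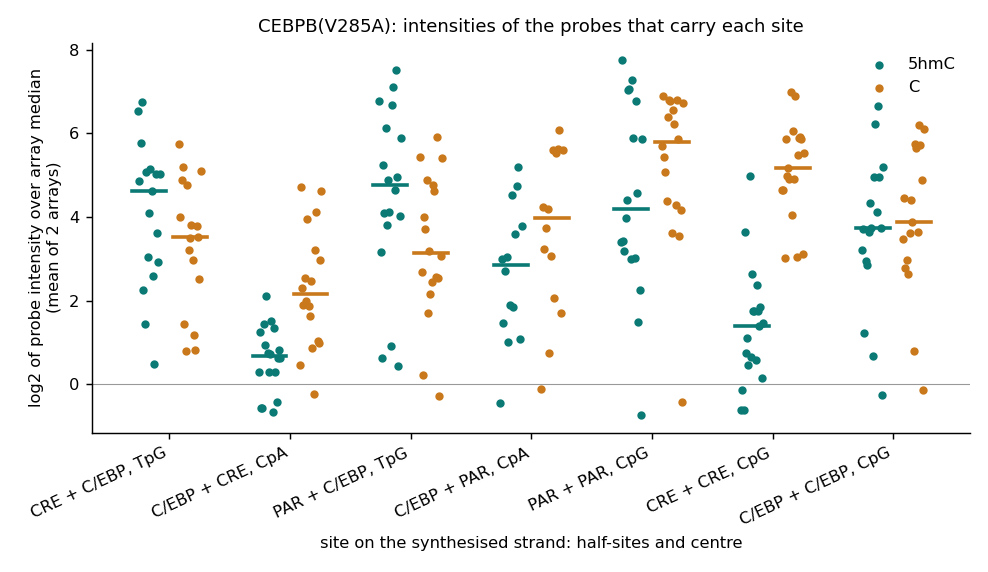
Log2 of background-subtracted probe intensity over the array median, as the mean of 2 arrays, for each probe (points) with a given site, 5hmC left of C, with the median as a bar. The CRE palindrome (CRE + CRE, CpG) is lower on 5hmC in all 19 probes, and PAR + C/EBP with a TpG centre is higher on 5hmC in 17 of 18.

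Against 5mC, taken directly between the modified groups, 3739 8-mers (5.71%) differed in limma at an adjusted p under 0.05, 1295 higher on 5hmC (1.98%) and 2444 lower (3.73%). The split was 2339 higher and 2097 lower on recomputed Z-scores. With the arrays of these groups alone, limma called 0 8-mers, with 11327 at an unadjusted p under 0.05, and the pooled fit called 2108 without 5mC replicate 1 and 2141 without 5mC replicate 2. The C/EBP half-site after cytosine (CGCAA) was lower on 5hmC than on 5mC in 63 of 64 8-mers and after thymine (TGCAA) in 43 of 64, with 0 higher in either. The PAR half-site after thymine (TGTAA) was higher on 5hmC in 20 of 64 and lower in 0. These list counts against 5mC were made on the deposited scale only. Spots not above local background were 8.78% and 4.71% on the 5mC arrays, against 0.00496% and 0.960% on 5hmC. Among the 100 highest 8-mers, GCAA was in 29 on 5hmC and 92 on 5mC, and GTAA in 48 on 5hmC and 3 on 5mC.

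The hybrid tgaCgCaa had 42.0 and 60.7 on 5hmC, against 237 and 205 on 5mC (−169.9, limma adjusted p = 2.42e-08). On recomputed Z-scores that difference was −0.88 (limma adjusted p = 0.819), and the call was also lost on quantile-normalized, scaled and normexp values. The C/EBP palindrome ttgCgCaa had 76.9 and 57.7 on 5hmC, against 200.2 and 215 on 5mC (−140.4, limma adjusted p = 4.83e-08), a difference of 4.46 in the other direction on recomputed Z-scores. The PAR site ttatgtaa had 205 and 112 on 5hmC, against 35.7 and 34.6 on 5mC (123, limma adjusted p = 0.00122), a difference of 76.4 without 5hmC replicate 1. At ttatgCaa the levels were 228 and 125 on 5hmC, against 181 and 191 on 5mC, and at the CRE palindrome 10.8 and 6.48 on 5hmC, against 16.1 and 21.6 on 5mC. The differences of −9.21 and −10.2 were not called (limma adjusted p = 0.861 and 0.713). However, ttatgCaa was called higher on 5hmC when arrays were scaled to their 100 highest 8-mers (288), after quantile normalization (66.4) and on recomputed Z-scores (13.4). Its difference was 42.0 without 5hmC replicate 2 and −60.4 without 5hmC replicate 1. Of the 27 sites, 4 were called higher on 5hmC than on 5mC and 8 lower. On recomputed Z-scores 4 of the 8 turned positive, and ttgCgCaa, ttaCgCaa and tgatgCaa were then called higher (limma adjusted p = 0.0499, 0.0431 and 0.0300).

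The 5hmC minus C difference of CEBPB(V285A) was set against that of CREB1 in an interaction contrast, which called 1300 8-mers (1.98%) in limma at an adjusted p under 0.05, 232 higher in CEBPB(V285A) (0.354%) and 1068 lower (1.63%). On normexp-corrected probes the split was 414 higher and 731 lower, and on recomputed Z-scores 248 higher and 663 lower. The count was 545 without CREB1 C replicate 1, 522 without CREB1 5hmC replicate 2, 720 without CREB1 5hmC replicate 1 and 621 without CEBPB(V285A) C replicate 1. Of the 27 sites, 1 differed upwards and 10 downwards. None of these 11 calls was kept on the asinh scale, 1 each with scaled and with quantile-normalized arrays, 5 on recomputed Z-scores and 3 on normexp probes. At the CRE palindrome the difference was −146 in CEBPB(V285A) and −166 in CREB1, and the interaction was not called (20.2, limma adjusted p = 0.697).

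The composite tgatgCaa rose in CEBPB(V285A) by 52.2, while in CREB1 it had 141 and 171 on 5hmC, against 1.69 and 4.10 on C, a difference of 153. The interaction was −101 (limma adjusted p = 6.98e-04), and of the other scales only normexp probes kept the call. The PAR and CRE hybrid ttaCgtCa had −161 in CEBPB(V285A) and −50.7 in CREB1 (interaction −110.2, limma adjusted p = 8.00e-04), a call lost on all 5 other scales. At ttgtgtaa the difference was 21.0 in CEBPB(V285A) and 2.89 in CREB1 (interaction 18.1, limma adjusted p = 0.00464), a call kept on recomputed Z-scores and lost on the 4 other scales (0.05 on asinh, adjusted p = 0.986 in limma). At ttatgCaa it was 147 in CEBPB(V285A) and 27.3 in CREB1, and at ttatgtaa 120.0 in CEBPB(V285A) and 8.21 in CREB1. The interactions of 119 and 112 there did not pass the test (limma adjusted p = 0.0538 and 0.0525).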

How the data were processed

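The Z-score per 8-mer and array is a score made by the authors and deposited as a matrix; how it was computed from the probes is not given in the sources used here. Per the file headers, the deposited signal files give each of 40330 spots a median intensity and a local background intensity, not normalized. Arrays were grouped by the labels. limma 3.58.1 in R 4.3.3 (lmFit, eBayes with a mean-variance trend) was run on the deposited Z-scores of all 21 arrays, 1 coefficient per group, two-sided, with Benjamini-Hochberg adjustment over all 8-mers or pairs and calls at an adjusted p under 0.05. No 8-mer was filtered out, although 409 had no probe and 1024 had fewer than 8 (median 17). A further 10 matrix columns, all empty, were not used. Probe values are intensity minus local background (floor 1), divided by the array median, handled in Python 3.11.15. The number of arrays limits precision.

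Named 8-mers were the 27 sites, the 10 largest called rises and falls with at least 8 probes and no overlap between groups, the 8 highest of each group and the 8 largest strand changes, skipping any that shared 7 bases in a row with one taken. The members, sites and lists were chosen with earlier results of these data known. Alternatives were other scales, normexp, array weights, no trend, a replicate block, a probe minimum and each array left out. The labels do not say that replicate numbers pair arrays. Deviations of replicate 1 from the group mean correlated at 0.138 between the groups, across 8-mers, so no pairing was assumed.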

Additional observations from a re-analysis of the deposited data

Results flagged for a closer look

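At 11 of the 27 sites the 5hmC minus C difference of CEBPB(V285A) departed from that of CREB1 by the interaction contrast (limma adjusted p under 0.05, against 1.98% of all 8-mers). All 11 calls were lost on the asinh scale, 10 with scaled and 10 with quantile-normalized arrays, 6 on recomputed Z-scores and 8 on normexp probes. The interactions, CEBPB(V285A) minus CREB1, were −111.6 at ttaCgtaa, −110.2 at ttaCgtCa, −101 at tgatgCaa, −65.6 at ttgCgtCa and −64.2 at tgaCgCaa. They were −28.6 at ttaCatCa, −19.9 at tgatgtCa, −16.2 at ttatgtCa, −10.5 at ttgCatCa and −4.82 at ttgtgtCa, and 18.1 at ttgtgtaa. At tgaCgCaa the difference was −6.36 in CEBPB(V285A), where it was not called, and 57.8 in CREB1, and the interaction lost its call without CREB1 C replicate 1, CREB1 5hmC replicate 2 or CEBPB(V285A) C replicate 1 (−57.8 to −62.4). The interaction at tgatgtCa lost its call without either CREB1 5hmC array, CREB1 C replicate 1 or CEBPB(V285A) 5hmC replicate 1 (−16.0 to −19.9). At ttaCgtaa it was −123 in CEBPB(V285A) and −11.7 in CREB1, and the interaction turned positive on scales computed from the probes. At ttatgtCa it was −14.1 in CEBPB(V285A) and 2.02 in CREB1. The array numbers differ between all 4 groups of this contrast, so group and array number cannot be told apart.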

How the results depend on the processing

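The counts of calls in limma depended on the scale and on which arrays shared the spread. For 5hmC minus C (4755) they were 3099 on the asinh scale, 211 with arrays scaled to their 100 highest 8-mers, 3002 after quantile normalization, and, with the 4 arrays alone, 0 on the deposited scale, 0 scaled and 318 on asinh, these last 2 alternatives being chosen after seeing the data. For strand differences (1227) they were 171 on asinh, 27 scaled, 351 quantile-normalized, 600 on normexp probes, and, with own arrays alone, 478, 161 scaled and 2 on asinh. For the interaction with CREB1 (1300) they were 12 on asinh, 13 scaled, 512 quantile-normalized and 4057 with array weights, and, with own arrays alone, 399 and 0 scaled. For 5hmC minus 5mC (3739) they were 1954 on asinh, 112 scaled, 2073 quantile-normalized, 2390 on normexp probes, and, with own arrays alone, 0, 0 scaled and 0 on asinh. Unadjusted p under 0.05 stood at 14488 and 11548 beside the 0 calls of 5hmC minus C, 13743 beside that of the interaction, and 11327, 11063 and 11850 beside those of 5hmC minus 5mC. The cause was not tested. Leaving out each array in turn gave 2050 to 5730 (5hmC minus C), 510 to 1590 (strand), 522 to 1626 (interaction) and 2108 to 4757 (5hmC minus 5mC). The replicate block, for numbers that the labels do not pair, gave 6890, 2226, 1907 and 6087 in the same order.

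The direction turned as follows. For 5hmC minus C on recomputed Z-scores, ttaCgtaa was 6.82 and tgaCataa 5.25, the latter called higher (limma adjusted p = 0.00745). The site ttgtgtCa was 0.722 scaled, and ttgCataa was 22.8 scaled, 10.0 quantile-normalized, 3.37 recomputed and 0.0268 on normexp probes. With arrays left out, ttaCgCaa ranged from −30.2 to 76.1 and tgaCataa from −17.5 to 16.2, the ends being without 5hmC replicate 1 or 2. For the interaction, ttaCgtaa was 9.49 recomputed and 0.44 on normexp probes, and ttaCgCaa ranged from −65.3 to 40.9 with arrays left out. For 5hmC minus 5mC, recomputed values were 4.46 at ttgCgCaa, 6.11 at ttaCgCaa, 6.08 at tgatgCaa, 0.0312 at ttgtgCaa and 13.4 at ttatgCaa, scaled values 95.9 at ttaCgCaa, 43.9 at tgatgCaa and 288 at ttatgCaa, and ttatgCaa was 66.4 quantile-normalized and −60.4 to 42.0 with arrays left out. For strand differences, atgaCgta was 1.31 on asinh, 0.92 recomputed and 0.20 on normexp probes, and tgaCatCa minus tgatgtCa 4.10 recomputed. List medians turned on the scaled values for all 8-mers (−0.0816), TGACT starts (0.0154; 0.0753 recomputed), CGTAA ends (0.204), ETS (−0.852), 4 cytosines (−0.333) and 5 cytosines (0), and with arrays left out for all 8-mers (−0.00491 to 0.0235) and ETS (−0.0446 to 0.0956). At tgaCgtCa, ttgCgtCa, ttaCgtCa, ttatgCaa, ttatgtaa and tgatgCaa the direction of 5hmC minus C was the same in all 12 other settings tried besides arrays left out, and the call in 9, 9, 10, 8, 9 and 7 of them.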

Other observations

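The largest rises on 5hmC carried by fewer than 8 probes were 3 cytosine-rich 8-mers with 1 probe each, which the rule for named 8-mers left out and which were chosen after their values were seen. The 8-mer tCCCCata had Z-scores of 55.2 and 52.3 on 5hmC, against 2.17 and 3.49 on C. The 8-mer agtCCCCC had 33.5 and 28.9 on 5hmC, against 8.56 and 9.48 on C, and CCCCgtCg had 25.4 and 18.7 on 5hmC, against 0.290 and 0.700 on C. A score from 1 probe is set by that spot and by everything else in its sequence.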
